A study of Mus musculus with 19 samples.

Results

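Genes of bile acid synthesis and transport were examined in mouse liver 2 h after removal of 85% of the organ. The set holds 31 genes named by function. Each was represented by the probe set of 1 gene symbol with the highest mean over 19 arrays, as was done for all 18193 genes so represented. All 31 had such a probe set. Genes above log2 4 in 4 or more of the arrays entered the tests, namely 29 of the 31 and 8515 of all genes. The members were named by function, but with earlier results of these data known, and the choice of probe set and the filter use measured levels.

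The mice were male C57BL/6 animals of 10 to 12 weeks, and every animal had the resection. The 4 genotypes were wild type (WT, 5 arrays), Ager null (Ager_null, 6 arrays), Myd88 null (Myd88_null, 4 arrays), and Ager null with Myd88 null (Ager_Myd88_null, 4 arrays). Ager codes for RAGE, which binds damage-associated ligands at the cell surface, and Myd88 encodes the adaptor of most Toll-like receptors and of the interleukin-1 receptor. The labels name neither the alleles nor a tissue-restricted promoter, and unresected liver was not analysed here. The comparisons ask whether loss of either gene, or of both, goes with a different level of a transcript at this time. Levels are log2 GCRMA values, and errors of group means are SDs. In whole liver, fewer cells of a type and less RNA per cell cannot be told apart.

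Bile acids are made from cholesterol in hepatocytes. In the classic pathway Cyp7a1 sets the rate and Cyp8b1 directs product towards cholic acid, while the alternative pathway starts with Cyp27a1 and continues through Cyp7b1. The acids are conjugated to taurine or glycine, pumped into the canaliculus by the bile salt export pump Abcb11, and taken up again from portal blood by Slc10a1 and the organic anion transporters of the Slco1 family. Bile acids activate the nuclear receptor FXR (Nr1h4), which induces SHP (Nr0b2), a repressor of Cyp7a1, and a second brake reaches the hepatocyte from the intestine through Fgfr4 and its co-receptor Klb. After loss of liver mass the remnant receives the whole returning bile acid load, and this pathway is a known regulator of regrowth.

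Of 203 tests (29 members in 7 comparisons), 2 had an adjusted p under 0.05 (limma, Benjamini-Hochberg over all tested genes of a comparison), the threshold for a call. Of all tested genes, 0.153% to 2.44% were called per comparison. Slco1a1 fell by 0.50 ± 0.10 (SE) in Ager_Myd88_null against Ager_null (adjusted p = 0.0214 in limma), where 2.44% of all genes were called. Slco1a4 fell by 1.42 ± 0.31 (SE) in Ager_null against Myd88_null (adjusted p = 0.0322 in limma), where 1.26% were called. Both encode organic anion transporters of the basolateral membrane, and they are neighbours among the protein-coding genes of chromosome 6 in the RefSeq table used. The promoters of these 2 genes are shown because they carry the only calls among the members. They run from 250 bases before to 50 bases after the RefSeq start (GRCm38.p6), Slco1a1 at chr6:141946913-141947212 and Slco1a4 at chr6:141856171-141856470, both on the minus strand and both printed 5′ to 3′ along the gene. Capitals mark AGGTCA on either strand, the core motif bound by many nuclear receptors.

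Slco1a1: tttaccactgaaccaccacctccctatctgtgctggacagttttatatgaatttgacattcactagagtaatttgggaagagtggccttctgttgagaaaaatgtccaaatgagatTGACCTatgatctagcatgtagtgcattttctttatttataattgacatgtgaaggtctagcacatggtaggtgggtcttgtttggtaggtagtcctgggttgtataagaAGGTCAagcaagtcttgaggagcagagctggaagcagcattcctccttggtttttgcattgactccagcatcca
Slco1a4: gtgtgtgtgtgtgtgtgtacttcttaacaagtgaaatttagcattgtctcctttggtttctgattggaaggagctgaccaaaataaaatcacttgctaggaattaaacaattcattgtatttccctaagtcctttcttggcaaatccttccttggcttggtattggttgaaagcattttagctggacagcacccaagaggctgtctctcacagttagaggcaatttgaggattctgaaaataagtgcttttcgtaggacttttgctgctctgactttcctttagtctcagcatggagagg

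The Slco1a1 promoter held 2 copies of AGGTCA, whose first bases lie at -134 and -24 relative to the start, and the Slco1a4 promoter held 0. The motif was searched on both strands of 32851 promoters of this length and was present in 16.3% of them. Among the members, 23 were matched to these promoters by symbol, with promoters on chromosome 18, where Atp8b1 lies, left out of the match. Cyp7a1, Cyp7b1, Cyp39a1, Amacr, Slc27a5, Baat, Abcc3 and Atp8b1 were not matched. Of the 23 matched members, 11 had at least 1 copy in a promoter. The 23 members had 28 promoters, so this count by gene is not like the share by promoter given above. The longer motif TCAAGGTCA, which contains the first and is bound by LRH-1 (Nr5a2), was in 0.423% of all promoters and in 0 of the 23 matched members. Only this exact string was searched, so other forms of the site were not counted. Cyp7a1 was not among the members searched. A match is a description of these letters and not of binding.

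The labels hold a number after the letter S in each sample description, whose meaning they do not give. The arrays were divided here by this number into ranges whose bounds the labels do not give. These were S 1 to 6 (WT, Myd88_null and Ager_Myd88_null 1 and 2), S 7 to 12 (WT 3 and 4, Myd88_null 3, Ager_Myd88_null 3 and 4) and S 13 to 20 (all 6 Ager_null, WT 5 and Myd88_null 4). Ager_null and Ager_Myd88_null share no S range, so no value within a range could be had for that comparison, and a fit with S range as a block ties the 2 groups only through WT and Myd88_null. Myd88_null 4 stood apart from the rest, with a median correlation of 0.965 with the other arrays against at least 0.979 for every other array, and with a mean deviation of 10 Kupffer cell and macrophage markers of -1.90, against -0.51 to 0.69 for the 15 arrays of the other groups. Myd88 itself lay between 2.60 and 3.86 on the 8 arrays labelled as lacking it and between 5.24 and 6.39 on the 11 others. Ager was under log2 4 on all arrays, so it checks no label. Hepatocyte markers had means of 13 to 15.4, and only Podxl passed the filter among 8 markers of kidney and glomerulus, with a mean of 4.11. Of 6 cholangiocyte markers with a probe set, Krt19, Krt7, Epcam, Cldn7 and Cftr were over log2 4 on 0 arrays, and Sox9 was on 4 arrays (mean 3.79) and passed in no comparison.

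**Figure D1:**
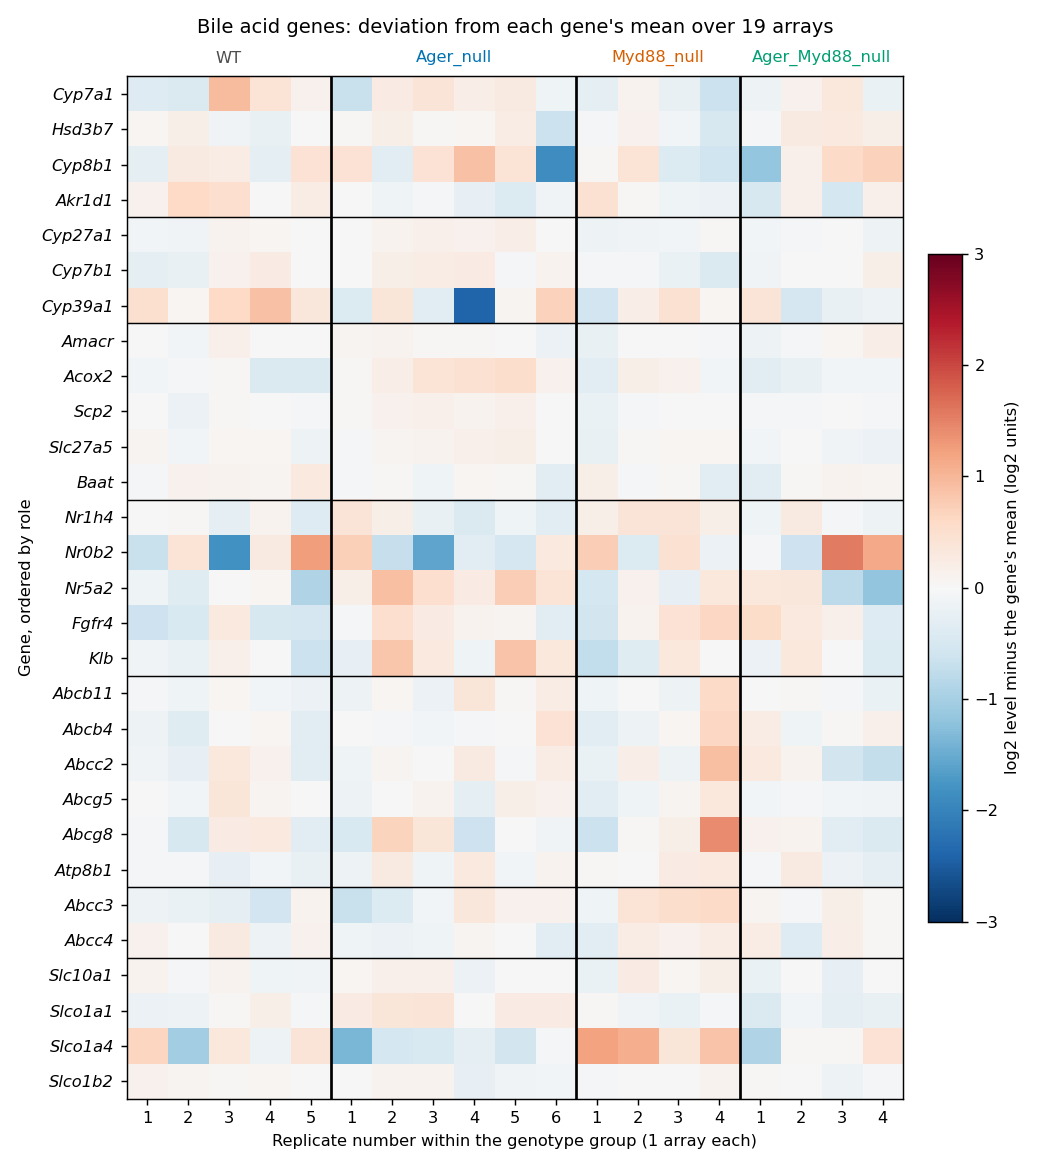
Log2 level of the 29 tested members (vertical axis, ordered by role, thin lines between roles) on each of 19 arrays (horizontal axis, replicate number within genotype), as the deviation from the member's own mean. Most cells are pale, the darkest are Cyp39a1 on Ager_null 4, Cyp8b1 on Ager_null 6 and Nr0b2 on several arrays, and Myd88_null 4 is the highest array for 4 of the 6 canalicular exporters.

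Against WT, no member was called in any of the 3 deletion genotypes. In Ager_null against WT 0 of 29 members passed, where 1.26% of all tested genes did, and 5 members (17.2%) had an unadjusted p under 0.05 against 21.6% of all genes. In Myd88_null against WT 0 of 29 passed, where 0.399% of all genes did, and 4 members (13.8%) had an unadjusted p under 0.05 against 19.6%. In Ager_Myd88_null against WT 0 of 29 passed, where 0.317% of all genes did, and 1 member (3.45%) had an unadjusted p under 0.05 against 8.57%. With limma's intensity trend, 1 member (Acox2) passed in Ager_null against WT and 0 in the others. The median difference of the tested members was 0.04, -0.01 and -0.06 in these comparisons, beside 0.02, 0.06 and 0.07 for all tested genes. Centring each array on its median moved the median of all genes in Myd88_null against WT by -0.12, to -0.05, and that of the members to -0.13.

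Among the deletion genotypes 2 calls were made. In Ager_Myd88_null against Ager_null 1 of 29 passed (2.44% of all genes did) and 3 (10.3%) had an unadjusted p under 0.05, against 22.7% of all genes. In Ager_null against Myd88_null 1 of 29 passed (1.26% of all genes) and 8 (27.6%) had an unadjusted p under 0.05, against 15.9% of all genes. In Ager_Myd88_null against Myd88_null 0 of 29 passed (0.153% of all genes) and 1 (3.45%) had an unadjusted p under 0.05, against 16.1% of all genes. In the interaction, which asks whether loss of Myd88 differs by Ager genotype, 0 of 29 passed (2.41% of all genes) and 4 (13.8%) had an unadjusted p under 0.05, against 27.2% of all genes. With limma's intensity trend these last counts were also 0. The number of members whose groups did not overlap was 2 in Ager_null against WT (3.7% of all genes), 2 in Myd88_null against WT (4.52%), 0 in Ager_Myd88_null against WT (3.81%), 2 in Ager_Myd88_null against Ager_null (8.39%), 0 in Ager_Myd88_null against Myd88_null (5.91%) and 1 in Ager_null against Myd88_null (3.92%).

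The mean deviation of the 29 members per array had a mean ± SD of -0.02 ± 0.07 over the 5 WT arrays, 0.01 ± 0.08 over the 6 of Ager_null, 0.05 ± 0.12 over the 4 of Myd88_null and -0.04 ± 0.05 over the 4 of Ager_Myd88_null. The ranges overlapped for every pair of groups. Of 174 differences between pairs of groups, 1 exceeded 1 on the log2 scale, that of Slco1a4.

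The 4 enzymes of the classic pathway did not pass the test in any comparison. Cyp7a1, the rate-limiting hydroxylase, stood at 10.10, 10.05, 11.42, 10.88 and 10.61 in WT, between 9.82 and 10.86 (median 10.70) in Ager_null, at 10.19, 10.58, 10.26 and 9.84 in Myd88_null, and at 10.33, 10.61, 10.80 and 10.27 in Ager_Myd88_null. The groups overlapped, and WT held the highest array while Ager_null held the lowest. Its difference from WT was -0.09 (95% interval -0.57 to 0.40) in Ager_null, -0.39 (-0.93 to 0.15) in Myd88_null and -0.11 (-0.65 to 0.43) in Ager_Myd88_null. A second, dimmer Cyp7a1 probe set (mean 8.27) moved with the chosen one within groups (r = 0.83 over 19 arrays) but gave larger differences, -1.05 ± 0.44 (SE) in Myd88_null against WT (adjusted p = 0.222 in limma over 13505 probe sets) and 1.29 ± 0.43 in Ager_null against Myd88_null (adjusted p = 0.137).

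Cyp8b1, the 12-alpha hydroxylase that sets the share of cholic acid, varied widely between animals of a genotype. It stood at 11.25, 11.80, 11.74, 11.25 and 11.97 in WT, between 9.65 and 12.40 (median 11.94) in Ager_null, at 11.55, 11.93, 11.12 and 10.93 in Myd88_null, and at 10.37, 11.69, 12.09 and 12.21 in Ager_Myd88_null. The lowest values were those of Ager_null 6 and Ager_Myd88_null 1, and the groups overlapped throughout. Its SD within groups, 0.73, was higher than that of 97.9% of tested genes, and the 95% interval of Ager_Myd88_null against WT ran from -0.96 to 0.94. This interval is not adjusted for the number of genes tested, so differences larger than its bounds could also go uncalled.

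Akr1d1, the reductase that saturates the sterol ring, had the smallest p-values of the classic group. It was at 11.57, 12.03, 11.95, 11.44 and 11.66 in WT, between 11.02 and 11.44 (median 11.32) in Ager_null, at 11.89, 11.47, 11.32 and 11.26 in Myd88_null and at 10.97, 11.60, 10.91 and 11.58 in Ager_Myd88_null. The difference from WT was -0.44 ± 0.16 (SE) in Ager_null (adjusted p = 0.122 in limma) and -0.46 ± 0.17 in Ager_Myd88_null (adjusted p = 0.398). The second of these was -0.51 in the range S 1 to 6 and -0.45 in S 7 to 12, with 2 arrays a group in each, and the first was -0.37 in S 13 to 20 against 1 WT array. Hsd3b7, which acts on the product of the hydroxylase, was between 12.34 and 13.29 on all arrays, and its difference in Ager_Myd88_null against Myd88_null was 0.30 ± 0.17 (adjusted p = 0.375), or 0.18 without Myd88_null 4.

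**Figure D2:**
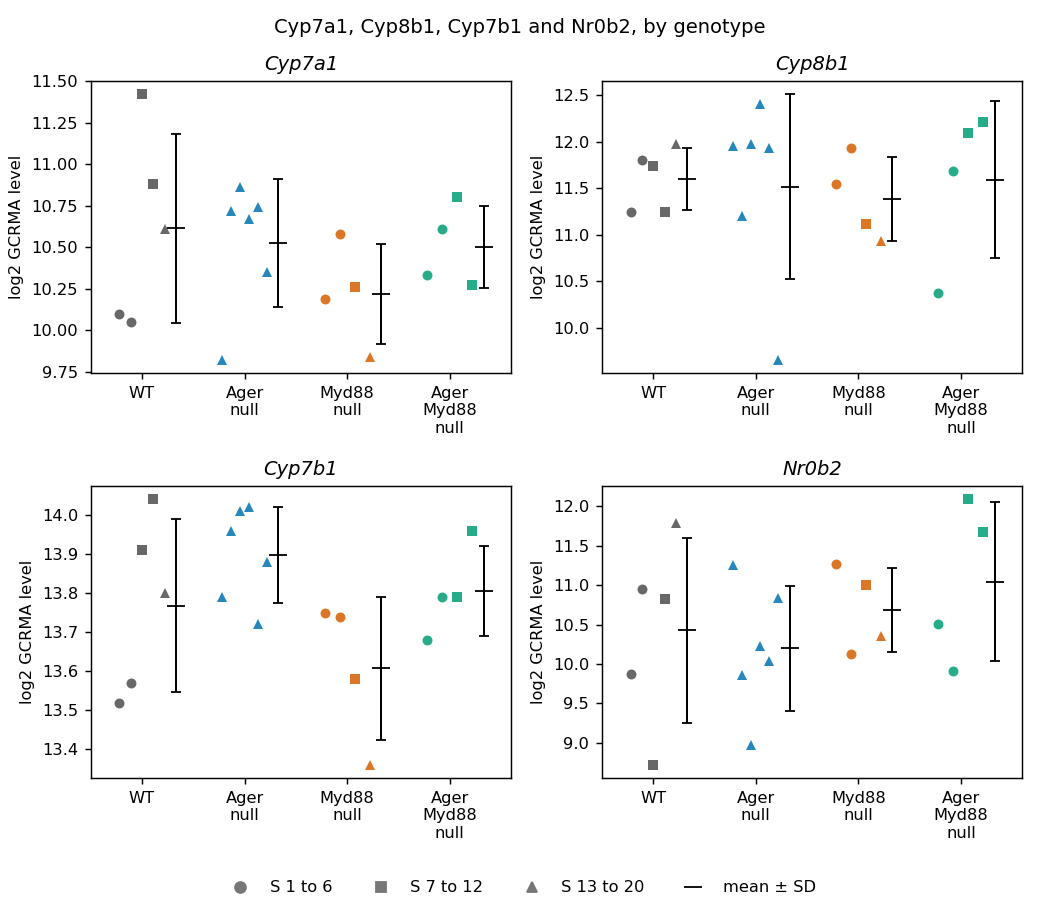
Log2 GCRMA level (vertical axes) of Cyp7a1, Cyp8b1, Cyp7b1 and Nr0b2 in the 4 genotypes (horizontal axes), 1 symbol per array shaped by S range, with the group mean ± SD at the right of each group. The groups overlap in every panel, and Nr0b2 spans 8.72 to 11.79 within WT alone.

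No enzyme of the alternative pathway passed the test in any comparison. Cyp27a1, the mitochondrial sterol 27-hydroxylase, was at 13.06, 13.04, 13.26, 13.20 and 13.17 in WT, between 13.16 and 13.34 (median 13.27) in Ager_null, at 12.99, 13.04, 13.08 and 13.18 in Myd88_null and at 13.06, 13.12, 13.16 and 13 in Ager_Myd88_null. Its SD within groups was 0.08, at percentile 1.5 of the tested genes, and the 95% interval of Ager_Myd88_null against WT was -0.23 to 0.11. The Ager_null group was highest, with a difference of 0.18 ± 0.08 (SE) from Myd88_null (adjusted p = 0.277 in limma), and Ager_Myd88_null differed from Ager_null by -0.16 ± 0.08 (adjusted p = 0.223).

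Cyp7b1, the oxysterol 7-alpha hydroxylase, was at 13.52, 13.57, 13.91, 14.04 and 13.80 in WT, between 13.72 and 14.02 (median 13.92) in Ager_null, at 13.75, 13.74, 13.58 and 13.36 in Myd88_null and at 13.68, 13.79, 13.79 and 13.96 in Ager_Myd88_null. The highest Myd88_null array, 13.75, lay just above the lowest Ager_null array, 13.72. The difference between these groups was 0.29 ± 0.12 (SE), with an adjusted p of 0.233 in limma, and 0.21 without Myd88_null 4. Cyp39a1, which hydroxylates 24-hydroxycholesterol, was between 8.25 and 9.08 in WT and between 5.79 and 8.89 in Ager_null, where Ager_null 4 was the lowest array and the next was at 7.79. Its difference in Ager_null against WT was -0.81 ± 0.39 (adjusted p = 0.237), and -0.39 without Ager_null 4.

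Among the enzymes of side chain shortening and conjugation, Acox2 came closest to the threshold. Acox2, the peroxisomal branched-chain acyl-CoA oxidase that shortens the side chain, was at 11.40, 11.45, 11.52, 11.05 and 11.05 in WT, between 11.52 and 12.01 (median 11.78) in Ager_null, at 11.14, 11.65, 11.61 and 11.39 in Myd88_null and at 11.16, 11.25, 11.40 and 11.40 in Ager_Myd88_null. Every Ager_null array was above all arrays of WT, the closest pair differing only after the second decimal, and above all of Ager_Myd88_null. The difference was 0.48 ± 0.13 (SE) in Ager_null against WT (adjusted p = 0.0598 in limma), -0.47 ± 0.13 in Ager_Myd88_null against Ager_null (adjusted p = 0.0684) and -0.62 ± 0.19 in the interaction (adjusted p = 0.0688). Under other settings these adjusted p-values ran from 0.0332 to 0.158, from 0.0435 to 0.17 and from 0.0151 to 0.196. The first passed without WT 3 (0.54), without Ager_null 1 (0.53), and without Myd88_null 1 or Myd88_null 4 (0.48 in both), and with an intensity trend (0.48). The second passed with median centring (-0.52), with an intensity trend and without Myd88_null 1 (-0.47 in both), and the interaction without Myd88_null 1 (-0.73). Within S 13 to 20, where WT has 1 array, the first difference was 0.73.

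Amacr, Scp2, Slc27a5 and Baat, the racemase, thiolase, CoA ligase and amino acid transferase of this route, did not pass the test in any comparison. The largest pairwise difference of their chosen probe sets was -0.18 ± 0.11 (SE), for Baat in Ager_null against WT (adjusted p = 0.336 in limma). Scp2 had the narrowest 95% interval of all members for Ager_Myd88_null against WT, -0.17 to 0.17. Its other probe sets disagreed with the chosen one, with within-group correlations of -0.60, -0.51 and -0.37 over 19 arrays, and gave -0.17 ± 0.14, -0.50 ± 0.31 and -0.29 ± 0.22 in that comparison.

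No sensor or feedback gene passed the test in any comparison. Nr5a2 (LRH-1, an activator of Cyp7a1 and Cyp8b1) was at 8.94, 8.70, 9.05, 9.12 and 8.16 in WT, between 9.25 and 9.96 (median 9.53) in Ager_null, at 8.54, 9.20, 8.81 and 9.39 in Myd88_null and at 9.38, 9.41, 8.27 and 7.87 in Ager_Myd88_null. All Ager_null arrays were above all WT arrays and overlapped both other groups, and the Ager_Myd88_null arrays of S 1 to 6 were both above those of S 7 to 12 by more than the range of the Ager_null arrays. The difference was 0.77 ± 0.26 (SE) in Ager_null against WT (adjusted p = 0.114 in limma; 1.41 within S 13 to 20, against 1 WT array), -0.83 ± 0.28 in Ager_Myd88_null against Ager_null (adjusted p = 0.105) and -1.02 ± 0.41 in the interaction (adjusted p = 0.127). A second Nr5a2 probe set gave 0.63 ± 0.24, -0.17 ± 0.25 and -0.82 ± 0.36 in the same comparisons, and another gave 0.24 ± 0.13, -0.40 ± 0.14 and -0.34 ± 0.20. With the mean of its probe sets the gene was at 0.38, -0.36 and -0.55.

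Nr1h4, the bile acid receptor FXR, was at 10.17, 10.23, 9.92, 10.30 and 9.80 in WT, between 9.75 and 10.57 (median 10.01) in Ager_null, at 10.35, 10.57, 10.58 and 10.37 in Myd88_null and at 10.06, 10.45, 10.12 and 10.04 in Ager_Myd88_null. All 4 Myd88_null arrays lay above all 5 WT arrays and overlapped both other groups. The difference was 0.38 ± 0.16 (SE) from WT (adjusted p = 0.198 in limma) and, by S range in ascending order, 0.26, 0.48 and 0.57. Ager_null differed from Myd88_null by -0.38 ± 0.15 (adjusted p = 0.237), and Ager_Myd88_null from Myd88_null by -0.30 ± 0.17 (adjusted p = 0.36).

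Nr0b2 (SHP), which FXR induces and which represses Cyp7a1, was the most variable member. It stood at 9.87, 10.95, 8.72, 10.82 and 11.79 in WT, between 8.97 and 11.25 (median 10.13) in Ager_null, at 11.27, 10.13, 11 and 10.36 in Myd88_null and at 10.51, 9.91, 12.09 and 11.67 in Ager_Myd88_null. The groups overlapped, and its SD within groups of 0.92 was higher than that of 99.4% of tested genes. The 95% interval of Ager_Myd88_null against WT was -0.57 to 1.79, the widest of all members. The receptor Fgfr4 was at 6.33, 6.48, 7.24, 6.46 and 6.43 in WT, between 6.59 and 7.44 in Ager_null, between 6.38 and 7.57 in Myd88_null and between 6.57 and 7.49 in Ager_Myd88_null. Its difference from WT was 0.45 ± 0.22, 0.50 ± 0.24 and 0.51 ± 0.24 in these 3 genotypes (adjusted p = 0.244, 0.263 and 0.585 in limma), comparisons that share the WT arrays. For Ager_Myd88_null it was 0.95 in the lowest S range and -0.02 in the middle one. Klb, its co-receptor, differed by 0.48 ± 0.22 in Ager_null against WT (adjusted p = 0.219) and by 0.52 ± 0.24 in Ager_null against Myd88_null (adjusted p = 0.29).

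**Figure D3:**
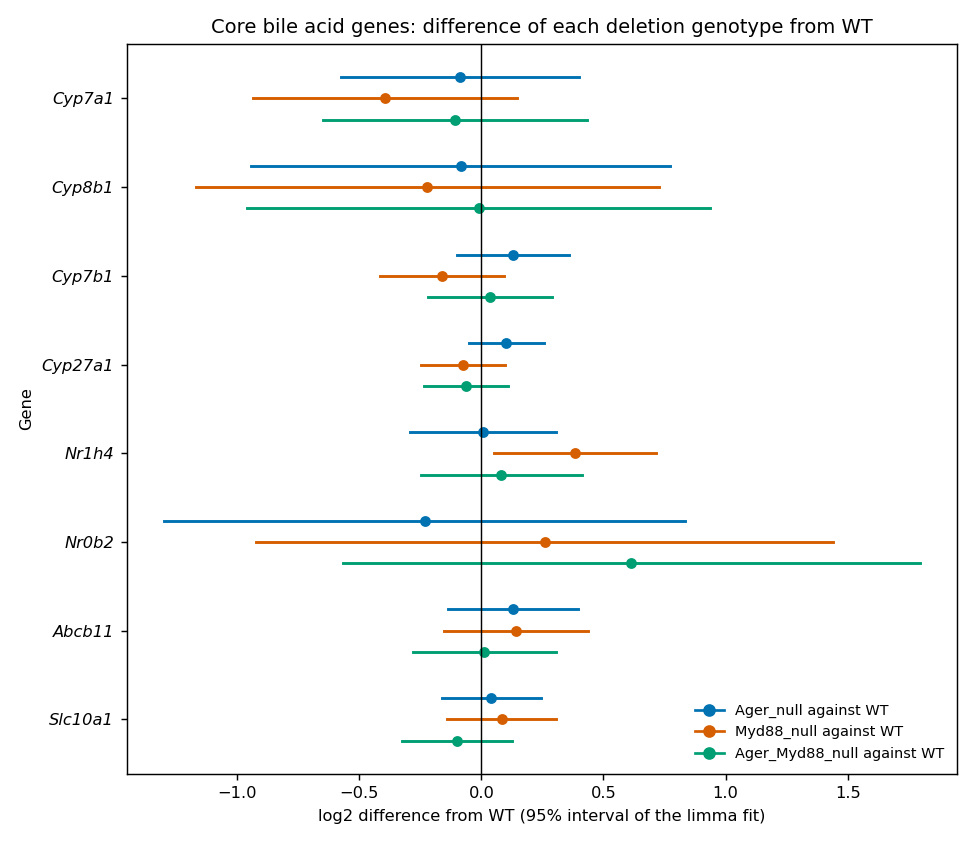
Log2 difference from WT (horizontal axis) with its 95% interval from the limma fit for 8 core genes (vertical axis) in Ager_null, Myd88_null and Ager_Myd88_null. The interval of Nr1h4 in Myd88_null lies above 0 before adjustment, all others include 0, and those of Nr0b2 and Cyp8b1 are the widest.

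The 6 canalicular exporters did not pass the test in any comparison. Abcb11, the bile salt export pump, was at 11.43, 11.35, 11.53, 11.40 and 11.30 in WT, between 11.30 and 11.83 (median 11.52) in Ager_null, at 11.34, 11.46, 11.33 and 12.05 in Myd88_null and at 11.47, 11.50, 11.41 and 11.28 in Ager_Myd88_null. The 95% intervals of its differences from WT were -0.13 to 0.39, -0.15 to 0.43 and -0.28 to 0.31 in Ager_null, Myd88_null and Ager_Myd88_null. Myd88_null 4 was the highest of all 19 arrays for Abcb11 (12.05), Abcb4 (12.08), Abcc2 (11.47) and Abcg8 (9.22), the pumps for bile salts, phospholipid, conjugated organic anions and, as a partner of Abcg5, sterols. This was seen after the values were known. Without Myd88_null 4, the difference of Myd88_null from WT went from 0.14 to -0.03 for Abcb11, from 0.20 to 0.01 for Abcb4, from 0.24 to -0.0024 for Abcc2 and from 0.31 to -0.08 for Abcg8. For Abcc2 the difference of Ager_Myd88_null from Myd88_null was -0.40 ± 0.24 (SE, adjusted p = 0.399 in limma) and -0.16 without that array. The same array had the lowest level of Kupffer cell and macrophage markers, and the part of either in these values was not tested.

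Atp8b1, the flippase that keeps the canalicular membrane stable, was at 8.47, 8.45, 8.27, 8.44 and 8.30 in WT and at 8.55, 8.50, 8.76 and 8.80 in Myd88_null, so that the groups did not overlap. Its difference was 0.27 ± 0.12 (SE, adjusted p = 0.248 in limma), by ascending S range 0.07, 0.40 and 0.51, and its interaction was -0.38 ± 0.17 (adjusted p = 0.173). Abcg5 ranged from 10.07 to 10.74 over all arrays, and its largest pairwise difference was -0.15 ± 0.13.

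For export across the basolateral membrane, Abcc3 was the member with the clearest level. Abcc3 (MRP3), which moves conjugated bile acids back to blood, was at 10.56, 10.51, 10.44, 10.13 and 10.81 in WT, between 10.05 and 11.06 (median 10.73) in Ager_null, at 10.59, 11.13, 11.25 and 11.29 in Myd88_null and at 10.80, 10.69, 10.88 and 10.75 in Ager_Myd88_null. Of the Myd88_null arrays, 3 were above all WT arrays and Myd88_null 1 was within the WT range. The difference of Myd88_null from WT was 0.57 ± 0.19 (SE), with an adjusted p of 0.13 in limma, and was 0.32, 0.97 and 0.48 within the 3 S ranges. Without Myd88_null 1, both Abcc3 (0.73, adjusted p = 0.0253) and Fgfr4 (0.74, adjusted p = 0.047) passed the test in this comparison, and so did 11.6% of all tested genes (987). Ager_Myd88_null differed from WT by 0.29 ± 0.19 (adjusted p = 0.723). Abcc4 (MRP4) was over log2 4 on 12 arrays with a mean of 4.02 and did not pass in any comparison. Slc51a and Slc51b, the subunits of the organic solute transporter, were over log2 4 on 0 arrays and 1 array, with means of 2.50 and 3.31, and were not tested.

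Uptake from blood held both called members. Slco1a1 (OATP1A1) was at 11.57, 11.60, 11.79, 11.94 and 11.71 in WT, between 11.77 and 12.15 (median 11.99) in Ager_null, at 11.78, 11.66, 11.56 and 11.72 in Myd88_null and at 11.31, 11.68, 11.47 and 11.54 in Ager_Myd88_null. All 6 Ager_null arrays lay above all 4 Ager_Myd88_null arrays, while WT lay between and overlapped both. The level was 12.0 ± 0.13 (SD, n = 6) in Ager_null and 11.5 ± 0.15 (n = 4) in Ager_Myd88_null, 1.42-fold lower. Against WT the difference was 0.28 ± 0.10 (SE) in Ager_null (adjusted p = 0.113 in limma) and -0.22 ± 0.11 in Ager_Myd88_null (adjusted p = 0.585), the interaction was -0.46 ± 0.15 (adjusted p = 0.0746), and Ager_null differed from Myd88_null by 0.32 ± 0.10 (adjusted p = 0.122). A second Slco1a1 probe set gave -0.45 ± 0.15 in Ager_Myd88_null against Ager_null and did not pass on its own (adjusted p = 0.112 in limma over 13505 probe sets).

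The Slco1a1 call was lost when single arrays were left out. It was lost without Ager_null 3 (-0.47, adjusted p = 0.0538 in limma), without Ager_Myd88_null 1 (-0.44, 0.0578), without Ager_Myd88_null 3 (-0.49, 0.0995), without Ager_Myd88_null 4 (-0.52, 0.0522) and when S range was a block (-0.49, 0.176). Over all settings its adjusted p ran from 0.0085 to 0.176, and its direction was the same in each. Of 7 stellate cell markers, 5 were tested, and Des and Col1a1 were over log2 4 on 0 arrays. In the same comparison all 5 were below 0 (median -0.18), and 1, Col1a2, passed, where 2.44% of all genes did. It fell by 0.64 ± 0.16 (SE, adjusted p = 0.0475 in limma). Col1a2 was over log2 4 on only 5 arrays, and its mean was over that level only in Ager_null (4.32). The call was thus made near the filter level. The mean deviation of the 5 markers was 0.11 to 0.47 in Ager_null and -0.17 to 0.24 in Ager_Myd88_null. The part of these markers in the result was not tested.

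Slco1a4 (OATP1A4) was at 8.91, 7.24, 8.60, 8.12 and 8.67 in WT, between 6.90 and 8.22 (median 7.78) in Ager_null, at 9.48, 9.36, 8.65 and 9.14 in Myd88_null and at 7.38, 8.31, 8.32 and 8.70 in Ager_Myd88_null. All 4 Myd88_null arrays lay above all 6 Ager_null arrays, and WT overlapped both. The level was 9.15 ± 0.37 (SD, n = 4) in Myd88_null and 7.73 ± 0.45 (n = 6) in Ager_null, 2.68-fold lower. The difference of Myd88_null from WT was 0.85 ± 0.33 (SE, adjusted p = 0.178 in limma), that of Ager_null from WT was -0.58 ± 0.29 (adjusted p = 0.261), and that of Ager_Myd88_null from Myd88_null was -0.98 ± 0.34 (adjusted p = 0.232).

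This call was also lost when single arrays were left out. The adjusted p in limma was 0.0574 without Ager_null 1, 0.05 without Ager_null 2, 0.0587 without Ager_null 3, 0.0517 without Ager_null 4 and 0.0554 without Ager_null 5. It was 0.0615 without Myd88_null 1, 0.0903 without Myd88_null 2, 0.0814 without Myd88_null 4 and 0.0528 when S range was a block. Over these settings the difference stayed between -1.60 and -1.26. The groups share S 13 to 20 only through Myd88_null 4, where the difference was -1.40. For Myd88_null against WT it was 1.34, 0.28 and 0.46 within the 3 S ranges. In Ager_null against Myd88_null 4 of the 5 stellate markers were above 0 (median 0.40) and 1 passed, Col1a2, which rose by 0.80 ± 0.16 (adjusted p = 0.0218 in limma). Its mean in Myd88_null, 3.51, was under the filter level, as noted above. Of 7 periportal markers tested 5 were above 0 and 2, Ass1 (mean 4.36, near the filter level) and Hsd17b13, below (median 0.10). Of these 7, 1 passed, Cdh1, which rose by 0.55 ± 0.13 (adjusted p = 0.0401 in limma). The pericentral markers had a mean deviation of -0.38 to 0.07 in Ager_null and -0.01 to 0.22 in Myd88_null. The 10 Kupffer cell and macrophage markers (0 called) had a mean deviation of -0.51 to 0.68 in Ager_null and -1.90 to 0.15 in Myd88_null. The part of these markers in the result was not tested.

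Slc10a1 (NTCP), the main sodium-dependent bile acid carrier, was at 13.37, 13.25, 13.38, 13.15 and 13.18 in WT, between 13.09 and 13.43 (median 13.31) in Ager_null, at 13.08, 13.52, 13.34 and 13.46 in Myd88_null and at 13.07, 13.29, 13.03 and 13.27 in Ager_Myd88_null. The groups overlapped, and the 95% intervals of the differences from WT were -0.16 to 0.24, -0.14 to 0.31 and -0.32 to 0.12. Slco1b2 (OATP1B2), the main liver carrier of unconjugated bile acids, ranged from 13.20 to 13.58 over all arrays, and its largest pairwise difference was -0.10 ± 0.09 (SE), in Ager_Myd88_null against WT (adjusted p = 0.812 in limma). A dimmer Slco1b2 probe set (mean 11.56, within-group r of 0.13 with the chosen one) gave 0.70 ± 0.19 in Ager_null against Myd88_null (adjusted p = 0.0753 in limma over 13505 probe sets), -0.54 ± 0.19 in Ager_Myd88_null against Ager_null (adjusted p = 0.121) and -0.47 ± 0.20 in Myd88_null against WT (adjusted p = 0.228).

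**Figure D4:**
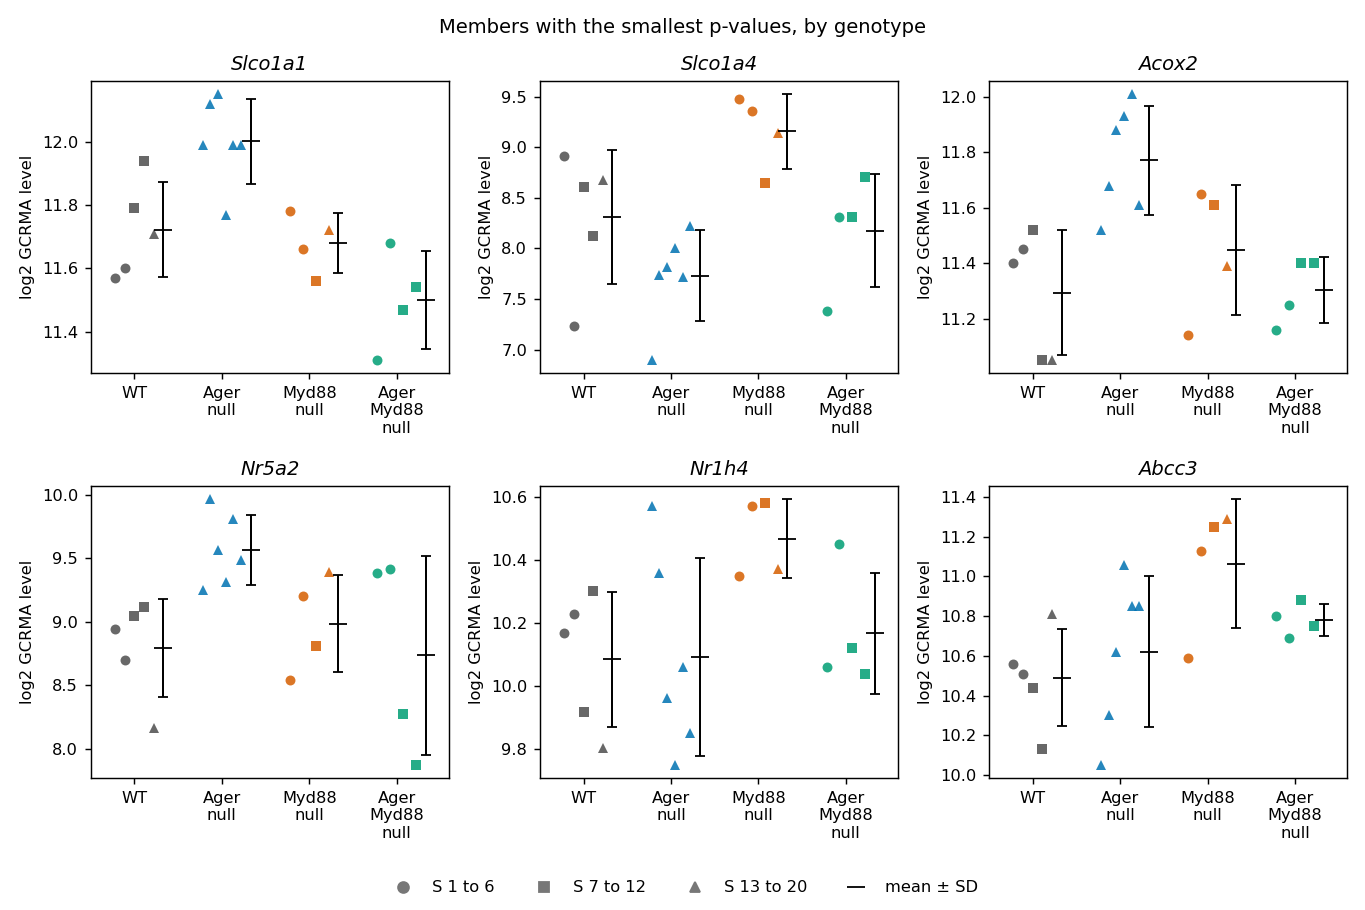
Log2 GCRMA level (vertical axes) of Slco1a1, Slco1a4, Acox2, Nr5a2, Nr1h4 and Abcc3 in the 4 genotypes (horizontal axes), 1 symbol per array shaped by S range, with the group mean ± SD at the right of each group. Ager_null lies above Ager_Myd88_null for Slco1a1 and Acox2, and Myd88_null lies above Ager_null for Slco1a4.

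Within groups, 4 pairs of genes were examined after removing group means (19 arrays, permutation tests within groups, adjusted over the 4 pairs). Cyp7a1 and Nr0b2, its repressor, had r = -0.46 (p = 0.101, adjusted 0.202) and rho = -0.45 (p = 0.0864, adjusted 0.173). Their r was 0.01 without WT 3 and Ager_null 1, the 2 arrays farthest from the median of Cyp7a1, a choice that also narrows its range. It was -0.39 over the 6 arrays of S 1 to 6, which include neither of these 2, and -0.57 over the 8 of S 13 to 20. Cyp7a1 and Cyp7b1 had r = 0.64 (permutation p = 0.0162, adjusted 0.065) and rho = 0.56 (p = 0.0355, adjusted 0.142). Their r was 0.65 without WT 3 and Ager_null 1, 0.87 over the 6 arrays of S 1 to 6 and 0.57 over the 8 of S 13 to 20. Cyp7a1 and Cyp8b1 had r = 0.22 (p = 0.346, adjusted 0.346) and rho = 0.28 (p = 0.238, adjusted 0.251), with r = 0.42 without those 2 arrays and 0.37 and 0.23 in the same S ranges. Nr0b2 and Abcb11 had r = -0.26 (p = 0.206, adjusted 0.275) and rho = -0.27 (p = 0.251, adjusted 0.251), with r = -0.21 without WT 3 and Ager_Myd88_null 3 and -0.79 and -0.10 in the same S ranges. None of these permutation tests passed 0.05 after adjustment. For all pairs, no value was computed within S 7 to 12, so the values by S range leave out those arrays and do not show whether the ranges agree.

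**Figure D5:**
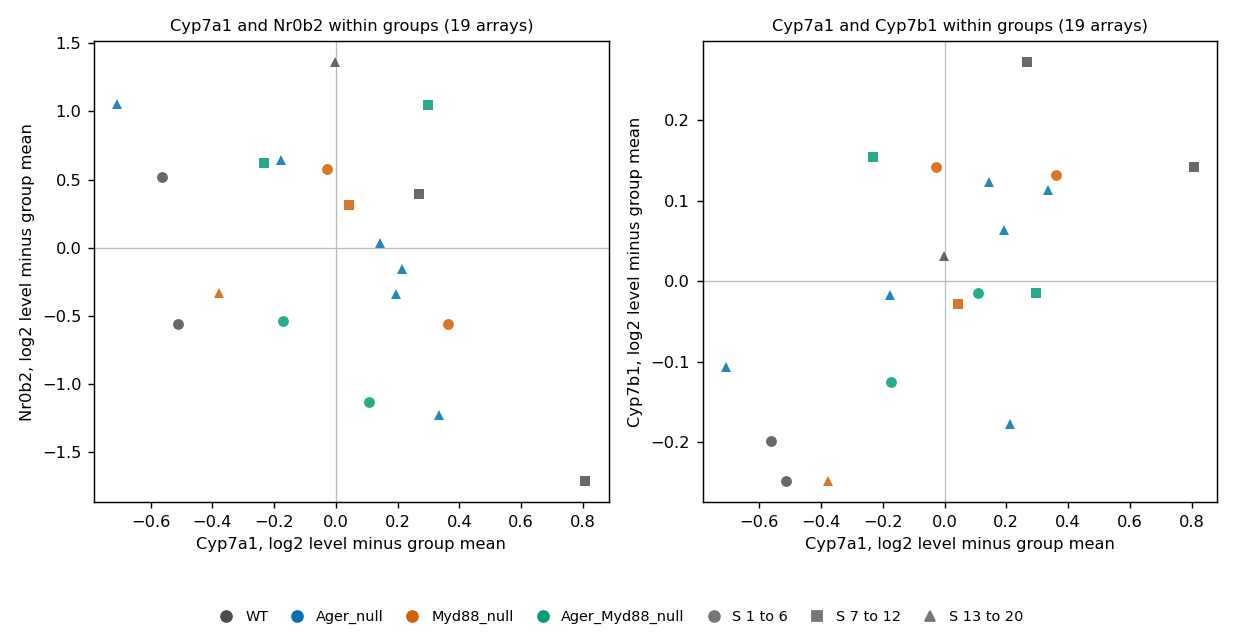
Log2 level minus the group mean of Cyp7a1 (horizontal axes) against Nr0b2 (left) and Cyp7b1 (right) on 19 arrays, coloured by genotype and shaped by S range. The left cloud runs downwards through WT 3 at its lower right and Ager_null 1 at its upper left, and the right cloud runs upwards.

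Genes of the pathway outside the set were taken from 4 further lists. Of 16 other enzymes of bile acid metabolism 11 were tested and 0 passed in any comparison; the smallest adjusted p in limma was 0.0521, for Acaa1a, a peroxisomal thiolase, at -0.54 ± 0.13 (SE) in Ager_null against WT. Of 21 regulators 19 were tested, and 3 passed, all in the interaction and all below 0. In that comparison 2.41% of all genes passed (205, of which 156 below 0), a count that ran from 0 (without Myd88_null 3, Myd88_null 4 or Ager_Myd88_null 3) to 1739 (without Myd88_null 1). These were Bhlhe40, a circadian repressor (-1.40 ± 0.26, adjusted p = 0.026), Rxra, the partner of FXR on DNA (-1.08 ± 0.25, adjusted p = 0.0366), and Zfp36l1, an RNA-binding protein that promotes Cyp7a1 mRNA decay (-1.04 ± 0.25, adjusted p = 0.0389). Rxra had means of 9.86 ± 0.10 (SD) in WT, 10.4 ± 0.21 in Ager_null, 10.6 ± 0.48 in Myd88_null and 10.0 ± 0.25 in Ager_Myd88_null. Bhlhe40 passed in 21 of 27 other settings, Rxra in 14 and Zfp36l1 in 12, and all 3 were lost when S range was a block and without any of Myd88_null 2, 3 and 4 and Ager_Myd88_null 3 and 4. Without Myd88_null 4 they were -1.47, -0.90 and -1.02 (adjusted p = 0.0522, 0.079 and 0.0871 in limma), and without Ager_Myd88_null 3 they were -1.37, -1.02 and -0.93 (adjusted p = 0.0811, 0.0964 and 0.0979). Rxra and Zfp36l1 were also lost without WT 1, 2 or 5 or Ager_null 3 and with no filter (adjusted p = 0.0507 and 0.0546), and Zfp36l1 without Ager_null 5, with median centring and with the mean of its probe sets. With the mean of its probe sets Rxra was at -0.40 (adjusted p = 0.0833). Of the other named regulators, Onecut1 had -1.91 ± 0.53 in Ager_Myd88_null against Ager_null (adjusted p = 0.0607), Nr2f2 -0.80 ± 0.21 in Ager_null against Myd88_null (adjusted p = 0.0645) and Mapk8 0.27 ± 0.12 in Ager_Myd88_null against WT (adjusted p = 0.555).

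Of 12 genes of cholesterol supply and efflux 8 were tested. Abca1, which exports cholesterol to apolipoprotein A-I, fell by 0.68 ± 0.18 (SE) in Ager_Myd88_null against Ager_null (adjusted p = 0.0499 in limma, where 2.44% of all genes passed) and had an interaction of -1.11 ± 0.26 (adjusted p = 0.0366); these calls held in 8 of 28 and 14 of 27 other settings. The first was lost without any 1 of the 6 Ager_null or the 4 Ager_Myd88_null arrays (adjusted p up to 0.188, without Ager_Myd88_null 3), and the interaction among others without Myd88_null 4 (-0.95, adjusted p = 0.0852). Of 6 bile acid genes of intestine and cholangiocytes 2 were tested and 0 passed. Slc10a2, the apical sodium-dependent bile acid transporter, had means of 7.26 ± 0.43 (SD, n = 5) in WT and 5.77 ± 0.91 (n = 4) in Myd88_null, whose arrays did not overlap, with a difference of -1.50 ± 0.33 (SE, adjusted p = 0.0512). Fgf15, the intestinal hormone that signals through Fgfr4, was over log2 4 on 0 arrays. Of the members, Abcg5, Abcg8 and Cyp39a1 lie on chromosome 17 with Ager, and Cyp8b1 and Slc51b on chromosome 9 with Myd88; none of them passed in a comparison, and a part of DNA flanking the deleted genes in their values was not tested.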

How the data were processed

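RNA of 19 liver samples was measured on Affymetrix expression arrays. The deposited values are log2 levels of probe sets. The submitters' processing notes name GCRMA (2.16), and other steps are not stated there. GCRMA corrects background by probe sequence and normalizes across arrays, so differences between arrays in total RNA are not kept. One label protocol describes RNA of isolated glomeruli, against source and tissue labels of liver; markers of both are given with the results. Groups and replicate numbers were read from titles. Arrays were treated as separate animals; were some technical, p-values would measure only their spread.

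Of 45101 probe sets, 64 controls were left out. In the platform annotation 34945 others carry 1 symbol, 932 several and 9160 none, and only the first were used. One probe set per gene (highest mean over all arrays) and the filter gave 8515 tested genes. The 4 groups were fitted together with limma 3.58.1 in R 4.3.3 (lmFit, eBayes, two-sided, 15 residual degrees of freedom before moderation), with Benjamini-Hochberg adjustment over all tested genes of a comparison and calls at an adjusted p under 0.05. Scripts were tested on simulated data. Correlations used 100000 permutations within groups (scipy 1.17.1). Promoters are RefSeq's, on GRCm38.p6. The number of arrays limits the precision.

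The members and lists were chosen with earlier results of these data known. Named are all members; in full the 8 core genes (Cyp7a1, Cyp8b1, Cyp7b1, Cyp27a1, Nr1h4, Nr0b2, Abcb11, Slc10a1), members called in a comparison and the 4 members of smallest p in each, and from the other lists the called genes and the 2 of smallest p in each comparison. Replicate numbers did not pair arrays and were not used as a block in the tests given. Other settings were quantile normalization, median centring, no filter, a floor at log2 4, the mean of probe sets, each probe set on its own (added after the data were seen), blocks for replicate number and S range, only the groups compared, an intensity trend, and leaving out each array.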

Additional observations from a re-analysis of the deposited data

Results flagged for a closer look

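Of 116 checks of a member within a genotype, 5 had an array far from the others of its group by Dixon's criterion at 95%, and chance alone gives about 5 percent. Hsd3b7 was lowest on Ager_null 6, at 12.34, with the next array at 13.03. Cyp39a1 was lowest on Ager_null 4, at 5.79, with the next array at 7.79. Slc27a5 was lowest on Myd88_null 1, at 13.55, with the next at 13.79. Fgfr4 was highest on WT 3, at 7.24, with the next at 6.48. Abcb4 was highest on Ager_null 6, at 11.88, with the next at 11.46. Ager_null 6 gave 2 of the 5.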

How the results depend on the processing

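Of the 28 member differences that were called or among the 4 of smallest p in a comparison, 0 changed sign under an alternative. Of the 175 others, 91 did, the largest of these at -0.42 (Abcg8, interaction). The 28 were picked for small p in the same data, which favours a stable sign, so the contrast is no support for them. The counts of members called in Ager_Myd88_null against WT and against Myd88_null were 0 throughout. In Ager_Myd88_null against Ager_null 2 members were called with median centring and with the intensity trend, 0 with the replicate block and 0 under the S range block. Under the S range block 0 were called in Ager_null against Myd88_null, and with the intensity trend 1 in Ager_null against WT. With the replicate block the Slco1a1 difference was -0.51 (adjusted p = 0.0532 in limma); it changed no other call of a member. It also ended the interaction calls of Rxra (adjusted p = 0.0627), Zfp36l1 (0.0632) and Abca1 (0.0578) and the call of Abca1 in Ager_Myd88_null against Ager_null (0.0656). Same-numbered arrays did not deviate together (25 pairs, correlations of -0.3 to 0.47, median 0.052). With median centring the median of the members was -0.13 in Myd88_null against WT and -0.15 in Ager_Myd88_null against WT, and under the S range block that of the interaction was -0.0165. Leaving out each array gave 0 to 1 members called in Ager_null against WT, 0 to 2 in Myd88_null against WT, 0 to 2 in Ager_Myd88_null against Ager_null, 0 to 1 in Ager_null against Myd88_null and 0 to 1 in the interaction. The medians then ran from -0.104 to 0.0019 in Ager_Myd88_null against Ager_null, from -0.147 to -0.0017 against Myd88_null, from -0.066 to 0.105 in Ager_null against Myd88_null and from -0.227 to -0.0542 in the interaction. The cause was not tested.

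Counts over all tested genes moved by more than 1.5 times as follows. Ager_null against WT had 107 calls, 43 with no filter, 59 under the S range block and 33 with only the groups compared. Myd88_null against WT had 34, 12 with median centring, 11 with quantile normalization, 86 under the S range block and 7 with only the groups compared. Ager_Myd88_null against WT had 27 and 46 with the replicate block. Against Ager_null it had 208, 91 with no filter, 138 with the replicate block and 120 under the S range block. Against Myd88_null it had 13, 3 with the replicate block, 5 under the S range block and 4 with only the groups compared. Ager_null against Myd88_null had 107, 386 under the S range block and 28 with only the groups compared. The interaction had 205, 76 with no filter, 37 with the replicate block and 0 under the S range block; it uses all 4 groups, so fitting only the groups compared was not run for it. With each probe set on its own Ager_null against Myd88_null had 170 and Ager_Myd88_null against Myd88_null had 20. Leaving out each array gave 16 (without WT 5) to 403 in Ager_null against WT, 10 (without Myd88_null 4) to 987 in Myd88_null against WT, 18 (without Ager_Myd88_null 3) to 34 (without Ager_null 5) in Ager_Myd88_null against WT, 18 (without Ager_Myd88_null 3) to 368 against Ager_null, 2 (without Myd88_null 4 or Ager_Myd88_null 3) to 446 against Myd88_null, 30 (without Myd88_null 4) to 179 (without Ager_null 6) in Ager_null against Myd88_null, and 0 (without Myd88_null 3, Myd88_null 4 or Ager_Myd88_null 3) to 1739 in the interaction. Where no array is named for the highest count, it was Myd88_null 1.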

Other observations

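Myd88_null 1 was the lowest of the 19 arrays for 7 of the 29 tested members, namely Abcg5, Abcg8, Amacr, Cyp27a1, Klb, Scp2 and Slc27a5, and the highest for Slco1a4. Myd88_null 4 was the highest for 6 members (Abcb11, Abcb4, Abcc2, Abcc3, Abcg8 and Fgfr4) and the lowest for Cyp7b1. Ager_null 5 was the highest for 5 members (Acox2, Cyp27a1, Klb, Scp2 and Slc27a5) and the lowest for none, and Ager_Myd88_null 4 was the lowest for 4 (Abcb11, Abcc2, Atp8b1 and Nr5a2). The mean deviation of the 6 canalicular exporters was 0.69 on Myd88_null 4 and between -0.26 and 0.17 on the 18 other arrays. These counts were made after the values were seen and have no test.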
